A study of Mus musculus with 12 samples.

Results

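The genes described are 45 genes of hepatic stellate cells and of the matrix that surrounds liver cells, of 24453 genes in the deposited tables. They were taken from a fixed list of symbols, matched to the symbol that opens each gene's annotation, and all 45 were present. By role they are 6 markers of quiescent stellate cells, 6 genes of stellate identity or growth factor reception, 3 contractile or cytoskeletal genes, and 6 genes of the TGF-beta axis. The others are 8 interstitial matrix genes, 3 matricellular genes, 5 basement membrane genes, 3 crosslinking enzymes of the lysyl oxidase family, and 5 matrix proteases or protease inhibitors. The quiescent markers (Lrat, Reln, Ngfr, Colec11, Ecm1 and Hgf) were set beside 12 genes linked to the activated state (Acta2, Tagln, Vim, Sparc, Pdgfrb, Timp1, Mmp2, Lox, Loxl1, Loxl2, Tgfb1 and Ctgf).

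Stellate cells lie between hepatocytes and the sinusoidal endothelium and, when quiescent, store vitamin A as retinyl esters. In injured liver, TGF-beta and PDGF are known to drive them into a contractile, myofibroblast-like state in which they secrete matrix, crosslink it through lysyl oxidases and slow its breakdown through TIMP inhibitors. Several of the matrix genes are also transcribed by endothelial cells, portal fibroblasts or, in the case of plasma fibronectin, hepatocytes.

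Liver RNA of C57Bl/6J mice was sequenced in 12 libraries, 3 in each of 4 groups set by genotype and doxycycline (dox). All mice were fed for 8 weeks on chow in which fat supplied 45% of calories (HFD), and all carried ColA-AMPKa1(312)/AMPKa1(312), an inducible transgene of the catalytic subunit of the energy-sensing kinase AMPK, together with R26-rtTA/rtTA, the activator that responds to doxycycline. In L-iAMPK mice Albumin-Cre, a recombinase driven by a hepatocyte promoter, was present in addition. L-iAMPK HFD+dox livers are the only group labelled as having active AMPK, and L-iAMPK HFD, iAMPK HFD+dox and iAMPK HFD livers are labelled as not having it. The Cre driver acts in hepatocytes and not in stellate cells, and the mice's age and sex, and whether RNA of several mice was pooled, are not given in the labels.

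Reads in genes numbered 13569440 to 20696895 per library, and the iAMPK HFD+dox replicate 1 library was the shallowest. Prkaa1, the gene of the transgene's subunit, stood at 1265, 947 and 1003 FPKM (fragments per kilobase of transcript, scaled to sequencing depth) in L-iAMPK HFD+dox livers and between 2.62 and 4.12 FPKM in the other 9. Levels below are FPKM by library, in the order of replicates 1, 2 and 3. Changes are log2 fold changes ± SE of log2(FPKM + 0.5), a scale that shrinks the change of genes near or under 0.5 FPKM. A gene "rose" or "fell" where limma's adjusted p over the 12614 genes tested was under 0.05. Of the 45 genes, 42 passed the filter on low values (at least 0.5 FPKM in at least 3 libraries), and Tgfb2, Tgfb3 and Lox did not. Nothing in the labels says whether the libraries of a group come from separate mice, so each p-value reflects only how far these libraries vary. Coordinates are mm10.

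The main comparison asks what doxycycline, and with it active AMPK in hepatocytes, does in L-iAMPK livers. Of the 42 genes tested, 24 fell in L-iAMPK HFD+dox against L-iAMPK HFD livers, 1 rose and 17 did not pass, while 25.8% of all genes passed in either direction. The 24 are 57.1% of the genes tested here, while 21.1% of all genes tested fell, and the 1 that rose, Fn1, compares with 4.76% of all genes. The median change was -0.62 against a median of -0.13 over all genes, and 41 of the 42 changes were below 0. The L-iAMPK HFD+dox libraries lay below all 3 L-iAMPK HFD libraries, without overlap, for 31 of the 42 genes, against 34.9% of all genes, and above them for 1, against 9.06% of all genes. In bulk liver, fewer stellate cells, less RNA per stellate cell and a change in other cells that transcribe these genes cannot be told apart. After median-ratio scaling, which moved the median change of all genes to 0.02, 18 of the genes fell and 1 rose. Of the 25 calls, 9 ended under at least 1 setting other than leaving out a library. Quantile normalization ended 8 (Eln, Lama4, Des, Lum, Loxl1, Ctgf, Thbs2 and Fbn1). The edgeR test on recovered whole reads ended 4 (Lama4, Des, Lum and Loxl1, edgeR adjusted p 0.0513 to 0.0615). The count of genes that fell was 7 without L-iAMPK HFD replicate 1, 8 without L-iAMPK HFD replicate 2 and 29 without replicate 3 of that group, and 14, 11 and 14 without L-iAMPK HFD+dox replicates 1, 2 and 3. The shares of all genes that fell under these alternatives are not given.

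**Figure D1:**
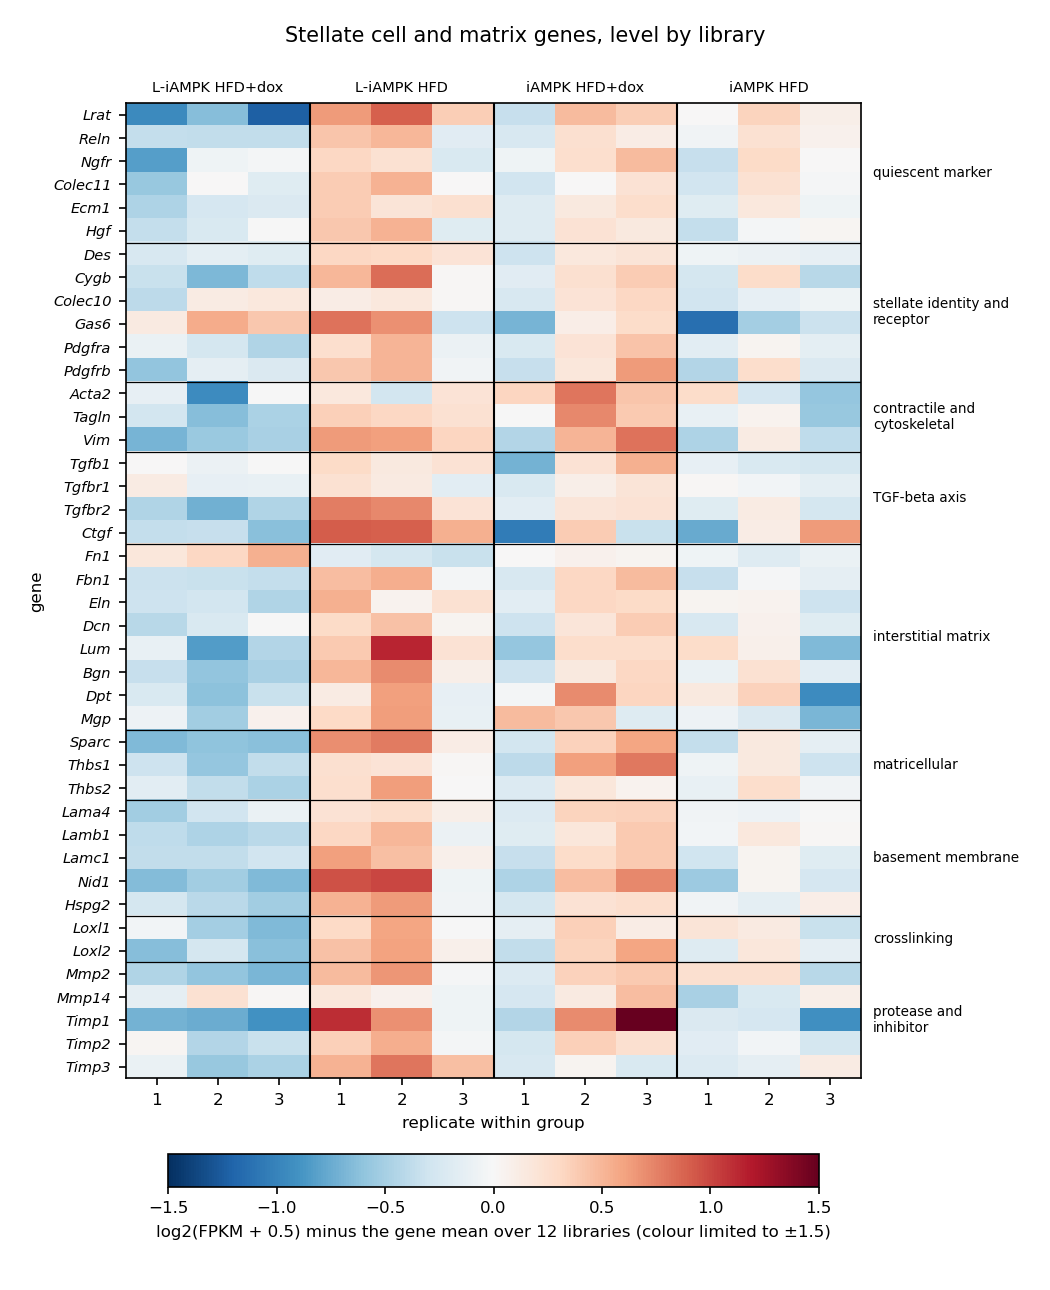
Each row is 1 of the 42 stellate cell and matrix genes tested, grouped by role, and each column is 1 of the 12 libraries; colour shows log2(FPKM + 0.5) minus the gene's mean over the libraries. The L-iAMPK HFD+dox columns are blue for most genes and red for Fn1 and Gas6, and L-iAMPK HFD replicates 1 and 2 and iAMPK HFD+dox replicates 2 and 3 hold most of the red.

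The libraries of the other 3 groups were not alike. Averaged over the 42 genes, the deviation of log2(FPKM + 0.5) from the gene mean lay between -0.36 and -0.32 in L-iAMPK HFD+dox livers. It lay between 0.04 and 0.49 in L-iAMPK HFD, between -0.26 and 0.35 in iAMPK HFD+dox, and between -0.20 and 0.04 in iAMPK HFD livers. The lowest L-iAMPK HFD library was replicate 3 and the lowest iAMPK HFD+dox library was replicate 1. The 3 libraries with active AMPK lay below all 9 others on this average, and were also the closest to each other.

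Some markers of both the quiescent and the activated state fell in L-iAMPK HFD+dox livers, and none rose. Of the 6 quiescent markers, 3 fell (median change -0.57), and of the 11 activated genes tested, 7 fell (median change -0.88). Over all genes 21.1% fell, with a median change of -0.13. The summed FPKM of the activated genes was 35.9, 35.3 and 36.0 in L-iAMPK HFD+dox livers, against 84.0, 85.0 and 61.7 in L-iAMPK HFD, 41.7, 74.0 and 82.2 in iAMPK HFD+dox, and 42.4, 57.2 and 46.0 in iAMPK HFD livers. The summed FPKM of the quiescent markers was 69.9, 86.7 and 84.3 in L-iAMPK HFD+dox livers, against 133, 130 and 111 in L-iAMPK HFD, 85.7, 112 and 120 in iAMPK HFD+dox, and 87.0, 115 and 98.6 in iAMPK HFD livers. The activated sum of L-iAMPK HFD+dox livers lay below all 9 other libraries, and the quiescent sum overlapped the lowest iAMPK HFD+dox library. Activated over quiescent gave ratios of 0.514, 0.408 and 0.427 in L-iAMPK HFD+dox livers, against 0.630, 0.654 and 0.558 in L-iAMPK HFD, 0.486, 0.663 and 0.687 in iAMPK HFD+dox, and 0.487, 0.498 and 0.467 in iAMPK HFD livers. These ratios were lower with active AMPK than in L-iAMPK HFD livers without overlap, and overlapped those of both iAMPK groups. Ecm1 and Colec11 make up most of the quiescent sum, and Sparc and Vim most of the activated sum. The ratio is a description of these libraries and was not tested. Fn1, which rose, is on neither list, and its 255, 280 and 329 FPKM in L-iAMPK HFD+dox livers exceeded the activated sums. The sums and ratios therefore depend on which genes were listed.

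**Figure D2:**
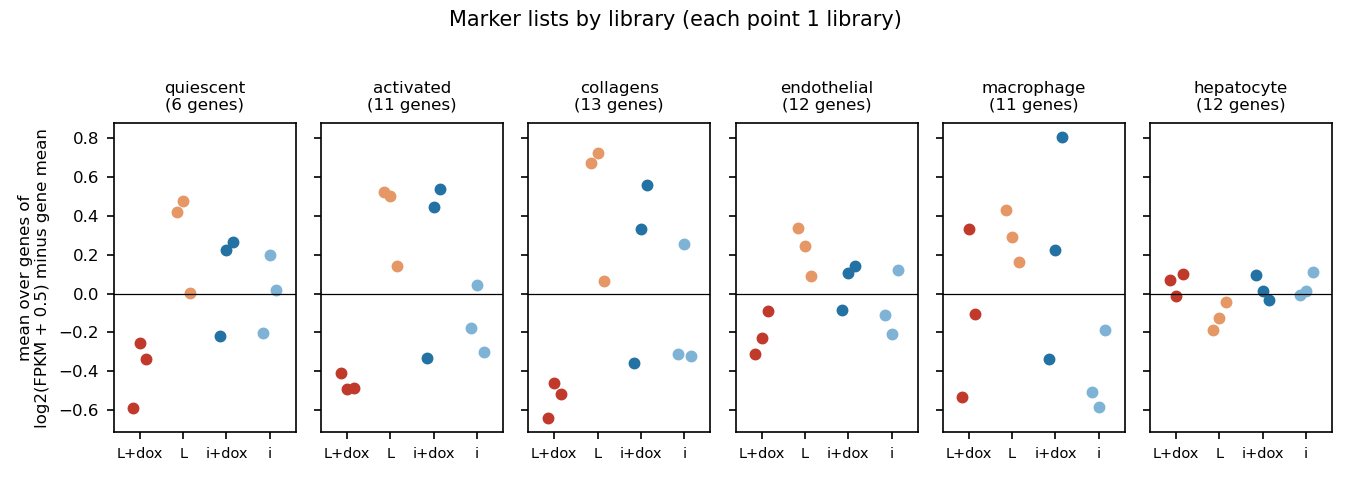
Each point is 1 library, and its height is the mean, over the genes of a list, of log2(FPKM + 0.5) minus the gene's mean over the 12 libraries; L stands for L-iAMPK HFD, i for iAMPK HFD and +dox for doxycycline. The L-iAMPK HFD+dox libraries lie below the L-iAMPK HFD libraries for the quiescent, activated, collagen and endothelial lists, overlap them for the macrophage list and lie above them for the hepatocyte list.

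The calls of 7 genes in this comparison were kept under every alternative run, with each of the 12 libraries left out in turn and up to 11 other settings: Lrat, Ecm1, Bgn, Tgfbr2, Sparc and Timp3, which fell, and Fn1, which rose. The 250 bases before the start site of the 6 that fell are printed here, from RefSeq (build GRCm38.p6), 5′ to 3′ on the strand of the gene. The 6 were picked for these calls, and Timp3, unlike the others, overlapped both iAMPK groups. Whether they share regulation was not tested. Capitals mark exact matches, on either strand, to the SP1 box GGGCGG, the SMAD element CAGAC, the AP-1 site TGANTCA and the TATA box TATAAA. The genes and motifs were chosen after the values were seen. The windows are chr3:82903975-82904224 (minus strand) for Lrat, chr3:95739570-95739819 (minus strand) for Ecm1, chr11:55420081-55420330 (minus strand) for Sparc, chrX:73483351-73483600 (plus strand) for Bgn, chr9:116175364-116175613 (minus strand) for Tgfbr2 and chr10:86300162-86300411 (plus strand) for Timp3.
Lrat: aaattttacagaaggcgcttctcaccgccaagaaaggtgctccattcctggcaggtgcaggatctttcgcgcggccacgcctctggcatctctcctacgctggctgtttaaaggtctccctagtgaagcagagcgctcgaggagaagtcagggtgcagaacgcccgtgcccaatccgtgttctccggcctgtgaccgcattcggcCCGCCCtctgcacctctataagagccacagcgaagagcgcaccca
Ecm1: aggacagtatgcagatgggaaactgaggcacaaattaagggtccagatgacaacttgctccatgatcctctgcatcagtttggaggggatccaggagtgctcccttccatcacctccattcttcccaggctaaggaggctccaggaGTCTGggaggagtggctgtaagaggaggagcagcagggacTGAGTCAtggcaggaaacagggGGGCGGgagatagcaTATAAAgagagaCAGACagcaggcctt
Sparc: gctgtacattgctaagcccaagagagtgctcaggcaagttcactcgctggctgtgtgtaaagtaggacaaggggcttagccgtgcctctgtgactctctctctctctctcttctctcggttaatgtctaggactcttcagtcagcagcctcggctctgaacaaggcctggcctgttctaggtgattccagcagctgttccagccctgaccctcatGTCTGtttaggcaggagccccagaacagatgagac
Bgn: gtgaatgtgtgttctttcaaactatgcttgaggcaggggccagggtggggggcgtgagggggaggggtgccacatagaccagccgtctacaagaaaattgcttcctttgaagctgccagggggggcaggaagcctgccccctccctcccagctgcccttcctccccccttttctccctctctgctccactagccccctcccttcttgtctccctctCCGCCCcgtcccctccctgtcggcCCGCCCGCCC
Tgfbr2: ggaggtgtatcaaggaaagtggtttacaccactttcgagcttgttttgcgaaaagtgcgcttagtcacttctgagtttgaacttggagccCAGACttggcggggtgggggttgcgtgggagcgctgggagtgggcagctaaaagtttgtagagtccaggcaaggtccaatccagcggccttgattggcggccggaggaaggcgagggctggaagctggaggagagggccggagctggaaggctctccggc
Timp3: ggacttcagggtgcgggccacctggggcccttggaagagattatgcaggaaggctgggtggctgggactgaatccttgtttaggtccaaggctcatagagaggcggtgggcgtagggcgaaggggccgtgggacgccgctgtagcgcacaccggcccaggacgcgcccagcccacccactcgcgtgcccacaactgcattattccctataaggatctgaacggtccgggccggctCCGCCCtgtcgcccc
Lrat, Bgn and Timp3 hold SP1 boxes, Sparc and Tgfbr2 hold a SMAD element each, and the Ecm1 window holds all 4 motifs. Of the 45 genes, 27 had promoters in the table, with 29 sequences in all, and 17 of these (58.6%) hold an SP1 box, against 32.7% of all 32851 promoters of that length. A SMAD element is in 13 of the 29 (44.8%) and in 42.2% of all promoters. An AP-1 site is in 1 of the 29 (3.45%) and in 6.75% of all, and a TATA box in 4 of the 29 (13.8%) and in 12.4% of all. The CArG box, the site of serum response factor, was searched only in a strict form, with nothing but A or T between its outer CC and GG. This form is in 1.47% of all promoters and in 0 of the 29. Sites that depart from it were not counted. A match in letters is a description and does not show that a factor binds.

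Among the quiescent markers, Lrat (chr3:82892582-82903974) encodes the acyltransferase that esterifies retinol for storage. It stood at 2.34, 3.05 and 1.85 FPKM in L-iAMPK HFD+dox livers, against 8.05, 9.72 and 6.62 in L-iAMPK HFD, 3.83, 7.17 and 6.63 in iAMPK HFD+dox and 5.02, 6.44 and 5.36 in iAMPK HFD livers. All 3 L-iAMPK HFD+dox livers lay below all 9 other livers. Lrat fell by 1.57 ± 0.22 on the log2 scale against L-iAMPK HFD (limma adjusted p = 0.00132). Reln, which encodes the secreted glycoprotein reelin, stood at 5.92, 5.84 and 5.85 FPKM in L-iAMPK HFD+dox livers, against 10.5, 11.1 and 6.79 in L-iAMPK HFD, 6.44, 9.16 and 8.38 in iAMPK HFD+dox and 7.39, 9.13 and 8.04 in iAMPK HFD livers. Its 3 values with active AMPK were nearly equal and below all others, and it fell by 0.61 ± 0.17 (limma adjusted p = 0.0229). The Reln call was lost on leaving out any 1 of L-iAMPK HFD+dox replicates 1, 2 and 3 and L-iAMPK HFD replicates 1 and 2 (adjusted p 0.0574 to 0.0874).

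Ecm1 (chr3:95734148-95739569), a secreted glycoprotein that in mouse liver holds TGF-beta in its latent form, stood at 41.1, 47.7 and 48.9 FPKM in L-iAMPK HFD+dox livers, against 74.1, 65.02 and 67.3 in L-iAMPK HFD, 49.95, 62.9 and 68.5 in iAMPK HFD+dox and 49.97, 63.9 and 54.6 in iAMPK HFD livers. The highest L-iAMPK HFD+dox value was below every other library, and Ecm1 fell by 0.58 ± 0.13 (limma adjusted p = 0.00839). Colec11, a collectin of innate immunity, stood at 16.2, 24.5 and 21.3 FPKM in L-iAMPK HFD+dox livers, against 31.9, 35.1 and 24.4 in L-iAMPK HFD, 19.8, 24.5 and 28.2 in iAMPK HFD+dox and 19.8, 28.5 and 23.97 in iAMPK HFD livers. L-iAMPK HFD replicate 3 and L-iAMPK HFD+dox replicate 2 were almost equal, and the change of -0.55 ± 0.19 did not pass (limma adjusted p = 0.0587).

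Hgf, the hepatocyte growth factor made by stellate cells, stood at 3.55, 3.94 and 4.67 FPKM in L-iAMPK HFD+dox livers, against 6.399, 6.98 and 4.09 in L-iAMPK HFD, 4.05, 5.55 and 5.27 in iAMPK HFD+dox and 3.57, 4.59 and 4.82 in iAMPK HFD livers. L-iAMPK HFD replicate 3 lay within the L-iAMPK HFD+dox range, and the change was -0.45 ± 0.19 (limma adjusted p = 0.0969). Ngfr, the p75 neurotrophin receptor, stood at 0.783, 1.68 and 1.74 FPKM in L-iAMPK HFD+dox livers, against 2.32, 2.16 and 1.44 in L-iAMPK HFD, 1.68, 2.21 and 2.66 in iAMPK HFD+dox and 1.29, 2.27 and 1.78 in iAMPK HFD livers. Its groups overlapped in every comparison, and its change was -0.41 ± 0.25 (limma adjusted p = 0.243).

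Of the stellate identity genes and receptors, Des and Cygb fell and Colec10, Gas6, Pdgfra and Pdgfrb did not pass. Des encodes the intermediate filament desmin and stood at 1.04, 1.15 and 1.11 FPKM in L-iAMPK HFD+dox livers, against 1.76, 1.76 and 1.6 in L-iAMPK HFD, 0.967, 1.54 and 1.58 in iAMPK HFD+dox and 1.25, 1.21 and 1.18 in iAMPK HFD livers. L-iAMPK HFD was higher than the other 3 groups without overlap, and Des fell by 0.46 ± 0.13 (limma adjusted p = 0.024). Cygb, the globin of stellate cells, stood at 2.88, 2.17 and 2.77 FPKM in L-iAMPK HFD+dox livers, against 5.56, 7.13 and 3.81 in L-iAMPK HFD, 3.31, 4.53 and 5.05 in iAMPK HFD+dox and 3.07, 4.66 and 2.702 in iAMPK HFD livers. It was below both L-iAMPK HFD and iAMPK HFD+dox without overlap and fell by 0.92 ± 0.23 against L-iAMPK HFD (limma adjusted p = 0.0168). The Des call was lost on leaving out any 1 of L-iAMPK HFD+dox replicates 1, 2 and 3 and L-iAMPK HFD replicates 1 and 2 (adjusted p 0.0523 to 0.0749). The Cygb call was lost on leaving out any 1 of L-iAMPK HFD+dox replicate 2 and L-iAMPK HFD replicates 1 and 2 (adjusted p 0.0548 to 0.0634).

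Pdgfrb, the PDGF receptor of activated stellate cells, stood at 1.28, 1.94 and 1.802 FPKM in L-iAMPK HFD+dox livers, against 3.04, 3.31 and 2.07 in L-iAMPK HFD, 1.61, 2.52 and 3.65 in iAMPK HFD+dox and 1.48, 2.72 and 1.81 in iAMPK HFD livers. It was lower than in L-iAMPK HFD without overlap, and the change of -0.60 ± 0.26 did not pass (limma adjusted p = 0.109). Pdgfra ranged from 0.873 to 2.18 FPKM over all libraries and had a difference of -0.50 ± 0.19 (limma adjusted p = 0.0701). Colec10, the collectin partner of Colec11, ranged from 6.88 to 11.5 FPKM and had a difference of -0.14 ± 0.16 (limma adjusted p = 0.559).

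Gas6, a ligand of the TAM family of receptor kinases, had another order of groups, and is given by library because of its values. It stood at 33.5, 44.9 and 40.4 FPKM in L-iAMPK HFD+dox livers, against 54.1, 49.2 and 24.4 in L-iAMPK HFD, 18.6, 32.6 and 36.9 in iAMPK HFD+dox and 13.7, 21.3 and 24.3 in iAMPK HFD livers. It was above iAMPK HFD without overlap in both L-iAMPK groups, which overlapped each other, and the change between them was -0.03 ± 0.34 (limma adjusted p = 0.954). Without doxycycline, the difference of L-iAMPK HFD from iAMPK HFD was 1.05 ± 0.34 and did not pass (limma adjusted p = 0.1002).

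The contractile and cytoskeletal genes Tagln and Vim fell, and Acta2 did not pass. Acta2 (chr19:34240336-34255373), which encodes the smooth muscle actin that defines activated stellate cells, stood at 1.52, 0.647 and 1.699 FPKM in L-iAMPK HFD+dox livers, against 1.97, 1.32 and 2.04 in L-iAMPK HFD, 2.26, 3.34 and 2.46 in iAMPK HFD+dox and 2.17, 1.36 and 0.977 in iAMPK HFD livers. Its L-iAMPK groups overlapped, iAMPK HFD+dox lay above all other groups, and the change in L-iAMPK was -0.39 ± 0.28 (limma adjusted p = 0.321). Tagln, an actin-binding protein of contractile cells, stood at 5.03, 3.79 and 4.31 FPKM in L-iAMPK HFD+dox livers, against 8.01, 7.77 and 7.28 in L-iAMPK HFD, 6.16, 10.5 and 8.26 in iAMPK HFD+dox and 5.69, 6.43 and 4.01 in iAMPK HFD livers. L-iAMPK HFD+dox lay below both L-iAMPK HFD and iAMPK HFD+dox without overlap, and Tagln fell by 0.76 ± 0.19 against L-iAMPK HFD (limma adjusted p = 0.0154). Vim, the intermediate filament vimentin, stood at 5.86, 6.52 and 6.83 FPKM in L-iAMPK HFD+dox livers, against 15.5, 15.2 and 12.4 in L-iAMPK HFD, 7.09, 14.2 and 17.7 in iAMPK HFD+dox and 6.97, 10.7 and 7.44 in iAMPK HFD livers. All 3 values with active AMPK lay below the 9 others, and Vim fell by 1.10 ± 0.28 (limma adjusted p = 0.0172). The Tagln call was lost on leaving out any 1 of L-iAMPK HFD+dox replicate 2 and L-iAMPK HFD replicate 1 (adjusted p 0.0527 to 0.0567). The Vim call was lost on leaving out any 1 of L-iAMPK HFD+dox replicate 1 and L-iAMPK HFD replicates 1 and 2 (adjusted p 0.0543 to 0.0589).

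**Figure D3:**
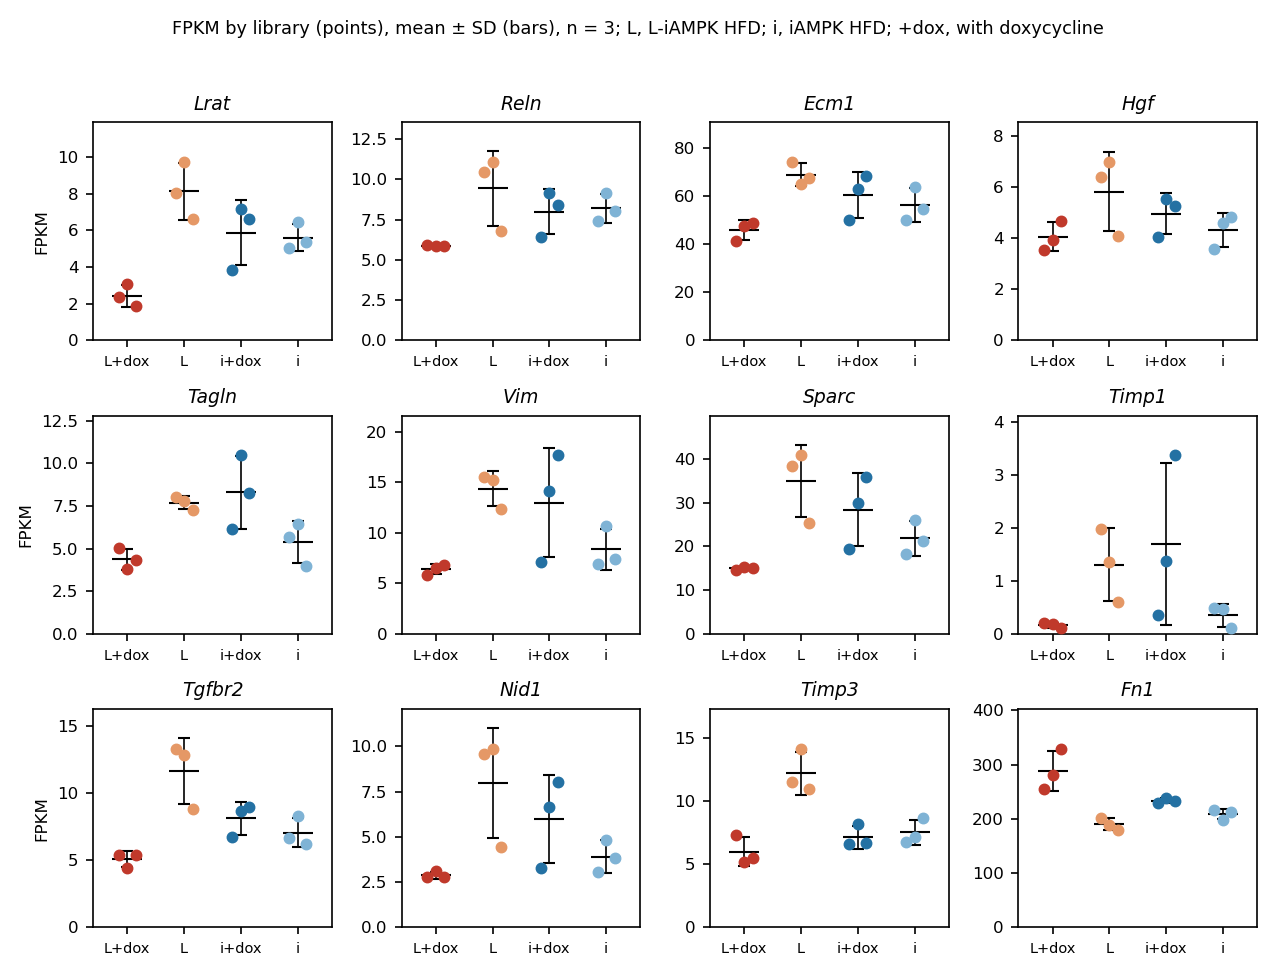
Points are single libraries, and bars are group means ± SD (n = 3), of the FPKM of 12 genes, with L for L-iAMPK HFD, i for iAMPK HFD and +dox for doxycycline. For Lrat, Reln, Ecm1, Vim, Sparc and Tgfbr2 the L-iAMPK HFD+dox points lie below those of all other groups, and for Fn1 above them.

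In the TGF-beta axis, the receptor Tgfbr2 and the target Ctgf fell, and the ligand Tgfb1 and the receptor Tgfbr1 did not pass. Tgfb1 stood at 3.21, 2.98 and 3.19 FPKM in L-iAMPK HFD+dox livers, against 4.01, 3.61 and 3.81 in L-iAMPK HFD, 1.76, 3.79 and 4.87 in iAMPK HFD+dox and 2.899, 2.67 and 2.595 in iAMPK HFD livers. It was lower than in L-iAMPK HFD without overlap, but higher than in iAMPK HFD without overlap, and the change of -0.25 ± 0.24 did not pass (limma adjusted p = 0.467). The ligands Tgfb2 and Tgfb3 stayed at or below 0.534 FPKM in every library and were not tested by limma. On recovered whole reads, Tgfb3 changed by -0.99 (edgeR adjusted p = 0.0472) and Tgfb2 had a difference of -0.73 (edgeR adjusted p = 0.282).

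Tgfbr2 (chr9:116087695-116175363), the type II receptor that binds TGF-beta first, stood at 5.401, 4.398 and 5.402 FPKM in L-iAMPK HFD+dox livers, against 13.3, 12.8 and 8.801 in L-iAMPK HFD, 6.72, 8.66 and 8.91 in iAMPK HFD+dox and 6.63, 8.29 and 6.21 in iAMPK HFD livers. All 3 livers with active AMPK lay below the 9 others and L-iAMPK HFD lay above iAMPK HFD, while its replicate 3 lay within the iAMPK HFD+dox range. Tgfbr2 fell by 1.11 ± 0.17 (limma adjusted p = 0.00158). Tgfbr1, the signalling type I receptor, ranged from 4.34 to 6.15 FPKM over all libraries and had a difference of -0.11 ± 0.13 (limma adjusted p = 0.572). Ctgf, a matricellular protein induced by TGF-beta, stood at 2.999, 3.04 and 2.402 FPKM in L-iAMPK HFD+dox livers, against 7.89, 7.86 and 6.002 in L-iAMPK HFD, 1.67, 5.35 and 3.06 in iAMPK HFD+dox and 2.17, 4.34 and 6.47 in iAMPK HFD livers. It was high in L-iAMPK HFD and varied widely within each iAMPK group, and it fell by 1.22 ± 0.38 against L-iAMPK HFD (limma adjusted p = 0.04002). The Ctgf call was lost on leaving out any 1 of L-iAMPK HFD+dox replicates 1, 2 and 3, L-iAMPK HFD replicates 1, 2 and 3, iAMPK HFD+dox replicate 3 and iAMPK HFD replicate 2 (adjusted p 0.0502 to 0.108).

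Of the 8 interstitial matrix genes, 4 fell (Fbn1, Eln, Lum and Bgn), Fn1 rose, and Dcn, Dpt and Mgp did not pass. Of all genes, 21.1% fell and 4.76% rose. Fn1 (chr1:71585473-71653234), the fibronectin gene, stood at 255, 280 and 329 FPKM in L-iAMPK HFD+dox livers, against 201, 189 and 179 in L-iAMPK HFD, 228, 238 and 233 in iAMPK HFD+dox and 216, 199 and 212 in iAMPK HFD livers. The L-iAMPK HFD+dox libraries lay above all 9 others, and Fn1 rose by 0.59 ± 0.09 (limma adjusted p = 0.00174). Bgn, the proteoglycan biglycan, stood at 35.2, 29.5 and 31.96 FPKM in L-iAMPK HFD+dox livers, against 63.5, 73.8 and 47.7 in L-iAMPK HFD, 36.1, 49.7 and 55.7 in iAMPK HFD+dox and 41.7, 52.6 and 40.03 in iAMPK HFD livers. It was below all 9 other libraries with active AMPK and fell by 0.91 ± 0.19 (limma adjusted p = 0.0070). The proteoglycan lumican, Lum, stood at 4.84, 2.73 and 3.75 FPKM in L-iAMPK HFD+dox livers, against 7.04, 12.3 and 6.204 in L-iAMPK HFD, 3.36, 6.43 and 6.401 in iAMPK HFD+dox and 6.48, 5.58 and 3.15 in iAMPK HFD livers. Lum was highest in L-iAMPK HFD replicate 2 and fell by 1.05 ± 0.34 (limma adjusted p = 0.046). The Lum call was lost on leaving out any 1 of L-iAMPK HFD+dox replicates 1, 2 and 3, L-iAMPK HFD replicates 1 and 2, iAMPK HFD+dox replicates 2 and 3 and iAMPK HFD replicate 2 (adjusted p 0.0516 to 0.151).

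Fbn1 and Eln, the fibrillin and elastin of elastic fibres, were scarce. Fbn1 stood at 0.356, 0.353 and 0.336 FPKM in L-iAMPK HFD+dox livers, against 0.974, 1.06 and 0.551 in L-iAMPK HFD, 0.407, 0.825 and 0.994 in iAMPK HFD+dox and 0.344, 0.56 and 0.476 in iAMPK HFD livers. Eln stood at 0.454, 0.477 and 0.367 FPKM in L-iAMPK HFD+dox livers, against 1.22, 0.727 and 0.892 in L-iAMPK HFD, 0.565, 0.968 and 0.941 in iAMPK HFD+dox and 0.724, 0.734 and 0.458 in iAMPK HFD livers. Both were lower than L-iAMPK HFD and iAMPK HFD+dox without overlap. Fbn1 fell by 0.66 ± 0.20 (limma adjusted p = 0.0341) and Eln by 0.62 ± 0.17 (limma adjusted p = 0.0241). The Fbn1 call was lost on leaving out any 1 of L-iAMPK HFD+dox replicates 1, 2 and 3 and L-iAMPK HFD replicates 1 and 2 (adjusted p 0.0781 to 0.122). The Eln call was lost on leaving out any 1 of L-iAMPK HFD+dox replicates 1, 2 and 3 and L-iAMPK HFD replicate 1 (adjusted p 0.0509 to 0.0976). Decorin (Dcn), the most abundant proteoglycan gene of the list, ranged from 68.4 to 124 FPKM and had a difference of -0.47 ± 0.18 (limma adjusted p = 0.0722). The collagen-binding Dpt ranged from 1.54 to 5.899 FPKM and had a difference of -0.59 ± 0.33 (limma adjusted p = 0.1995) and the calcification inhibitor Mgp ranged from 1.35 to 4.08 FPKM and had one of -0.45 ± 0.25 (limma adjusted p = 0.196).

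The matricellular genes act on how cells meet the matrix. Sparc (chr11:55394159-55420080), a collagen-binding glycoprotein, stood at 14.6, 15.2 and 14.97 FPKM in L-iAMPK HFD+dox livers, against 38.4, 40.7 and 25.4 in L-iAMPK HFD, 19.3, 29.96 and 35.8 in iAMPK HFD+dox and 18.2, 26.03 and 21.3 in iAMPK HFD livers. Its 3 values with active AMPK differed by less than 1 FPKM and lay below all 9 others, and Sparc fell by 1.17 ± 0.23 (limma adjusted p = 0.00643). Thbs2, a thrombospondin, stood at 0.684, 0.521 and 0.449 FPKM in L-iAMPK HFD+dox livers, against 1.07, 1.54 and 0.821 in L-iAMPK HFD, 0.647, 0.98 and 0.872 in iAMPK HFD+dox and 0.718, 1.09 and 0.777 in iAMPK HFD livers. It was lower than L-iAMPK HFD and iAMPK HFD without overlap and fell by 0.63 ± 0.18 (limma adjusted p = 0.0259). The Thbs2 call was lost on leaving out any 1 of L-iAMPK HFD+dox replicates 2 and 3 and L-iAMPK HFD replicates 1 and 2 (adjusted p 0.0626 to 0.101). Thbs1, known to activate latent TGF-beta, ranged from 0.125 to 1.116 FPKM and had a difference of -0.57 ± 0.26 (limma adjusted p = 0.129). It was below L-iAMPK HFD and iAMPK HFD without overlap. Its highest value in L-iAMPK HFD+dox livers, 0.251 FPKM, nearly met the lowest in iAMPK HFD livers, 0.252 FPKM.

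All 5 basement membrane genes fell, while 21.1% of all genes did. Nid1 (chr13:13437602-13512275), the nidogen that links laminin to type IV collagen, stood at 2.797, 3.11 and 2.77 FPKM in L-iAMPK HFD+dox livers, against 9.56, 9.85 and 4.45 in L-iAMPK HFD, 3.27, 6.65 and 8.01 in iAMPK HFD+dox and 3.05, 4.83 and 3.86 in iAMPK HFD livers. It was nearly equal in the livers with active AMPK, below L-iAMPK HFD and iAMPK HFD+dox without overlap, and varied most within these 2 groups. Nid1 fell by 1.24 ± 0.34 (limma adjusted p = 0.0234). Hspg2, the heparan sulfate proteoglycan perlecan, stood at 1.91, 1.68 and 1.503 FPKM in L-iAMPK HFD+dox livers, against 3.64, 3.98 and 2.27 in L-iAMPK HFD, 1.91, 2.85 and 2.95 in iAMPK HFD+dox and 2.27, 2.101 and 2.58 in iAMPK HFD livers. With active AMPK it lay below all 9 other libraries, by under 0.01 FPKM for iAMPK HFD+dox replicate 1, and fell by 0.77 ± 0.19 (limma adjusted p = 0.0132).

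The laminin chain genes encode the network-forming part of the basement membrane. Lamb1 stood at 1.59, 1.48 and 1.55 FPKM in L-iAMPK HFD+dox livers, against 2.89, 3.35 and 2.06 in L-iAMPK HFD, 1.91, 2.56 and 3.08 in iAMPK HFD+dox and 2.15, 2.55 and 2.26 in iAMPK HFD livers. Lamc1 stood at 2.46, 2.45 and 2.64 FPKM in L-iAMPK HFD+dox livers, against 5.35, 4.72 and 3.52 in L-iAMPK HFD, 2.52, 4.13 and 4.52 in iAMPK HFD+dox and 2.61, 3.43 and 2.87 in iAMPK HFD livers. Lama4 stood at 0.849, 1.08 and 1.31 FPKM in L-iAMPK HFD+dox livers, against 1.74, 1.81 and 1.56 in L-iAMPK HFD, 1.17, 1.92 and 1.96 in iAMPK HFD+dox and 1.35, 1.32 and 1.42 in iAMPK HFD livers. Each was below L-iAMPK HFD without overlap, Lama4 was also below iAMPK HFD, and Lamb1 was below all 9 other libraries. Lamb1 fell by 0.66 ± 0.16 (limma adjusted p = 0.0147), Lamc1 by 0.72 ± 0.19 (limma adjusted p = 0.0179) and Lama4 by 0.49 ± 0.16 (limma adjusted p = 0.0393). The Lamb1 call was lost on leaving out any 1 of L-iAMPK HFD replicates 1 and 2 (adjusted p 0.0527 to 0.0612). The Lamc1 call was lost on leaving out any 1 of L-iAMPK HFD+dox replicates 1 and 2 and L-iAMPK HFD replicates 1 and 2 (adjusted p 0.0519 to 0.0717). The Lama4 call was lost on leaving out any 1 of L-iAMPK HFD+dox replicates 1 and 2, L-iAMPK HFD replicates 1 and 2 and iAMPK HFD replicates 1, 2 and 3 (adjusted p 0.0508 to 0.135). Among the other basement membrane genes, the Nid1 call was lost on leaving out any 1 of L-iAMPK HFD+dox replicates 1, 2 and 3 and L-iAMPK HFD replicates 1 and 2 (adjusted p 0.0523 to 0.0838), and the Hspg2 call on leaving out any 1 of L-iAMPK HFD replicates 1 and 2 (adjusted p 0.0527 to 0.0562).

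The lysyl oxidase genes, whose enzymes crosslink collagen and elastin, were all scarce. Lox stood at 0.040, 0.018 and 0.034 FPKM in L-iAMPK HFD+dox livers, against 0.050, 0.049 and 0.118 in L-iAMPK HFD, 0.055, 0.13 and 0.105 in iAMPK HFD+dox and 0.075, 0.051 and 0.085 in iAMPK HFD livers, and it was not tested. Loxl1 stood at 0.413, 0.158 and 0.090 FPKM in L-iAMPK HFD+dox livers, against 0.656, 0.911 and 0.432 in L-iAMPK HFD, 0.351, 0.70 and 0.515 in iAMPK HFD+dox and 0.572, 0.529 and 0.241 in iAMPK HFD livers. Loxl2 stood at 0.172, 0.368 and 0.174 FPKM in L-iAMPK HFD+dox livers, against 0.915, 1.08 and 0.603 in L-iAMPK HFD, 0.31, 0.818 and 1.07 in iAMPK HFD+dox and 0.415, 0.673 and 0.448 in iAMPK HFD livers. Both were below L-iAMPK HFD without overlap and overlapped iAMPK HFD+dox, whose replicate 1 was its lowest. Loxl1 fell by 0.70 ± 0.23 (limma adjusted p = 0.0429) and Loxl2 by 0.88 ± 0.24 (limma adjusted p = 0.0209). The Loxl1 call was lost on leaving out any 1 of L-iAMPK HFD+dox replicates 2 and 3, L-iAMPK HFD replicates 1 and 2, iAMPK HFD+dox replicate 3 and iAMPK HFD replicates 1 and 2 (adjusted p 0.0501 to 0.151) and was not made on recovered whole reads (edgeR adjusted p = 0.0615). The Loxl2 call was lost on leaving out any 1 of L-iAMPK HFD+dox replicates 1 and 3 and L-iAMPK HFD replicates 1 and 2 (adjusted p 0.0656 to 0.0793).

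Among proteases and inhibitors, Mmp2 and Timp3 fell, and Mmp14, Timp1 and Timp2 did not pass. Mmp2, a gelatinase that cleaves type IV collagen, stood at 0.571, 0.467 and 0.413 FPKM in L-iAMPK HFD+dox livers, against 1.53, 1.82 and 0.95 in L-iAMPK HFD, 0.773, 1.36 and 1.43 in iAMPK HFD+dox and 1.23, 1.22 and 0.593 in iAMPK HFD livers. It lay below all 9 other libraries with active AMPK and fell by 0.95 ± 0.23 (limma adjusted p = 0.0134). The Mmp2 call was lost without L-iAMPK HFD replicate 2 (adjusted p = 0.0566). Mmp14, the membrane protease that activates the Mmp2 product, ranged from 8.96 to 17.9 FPKM and had a difference of -0.02 ± 0.18 (limma adjusted p = 0.946). Timp3 (chr10:86300412-86349505), the inhibitor that stays bound to matrix, stood at 7.31, 5.18 and 5.53 FPKM in L-iAMPK HFD+dox livers, against 11.5, 14.2 and 11.01 in L-iAMPK HFD, 6.58, 8.17 and 6.68 in iAMPK HFD+dox and 6.78, 7.17 and 8.67 in iAMPK HFD livers. L-iAMPK HFD alone was high, the other 3 groups overlapped, and Timp3 fell by 0.97 ± 0.14 (limma adjusted p = 0.00135). Timp2 ranged from 2.64 to 5.73 FPKM and had a difference of -0.54 ± 0.19 (limma adjusted p = 0.0569).

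Timp1, an inhibitor induced in fibrotic liver, had the widest spread of the list. It stood at 0.202, 0.184 and 0.114 FPKM in L-iAMPK HFD+dox livers, against 1.98, 1.35 and 0.60 in L-iAMPK HFD, 0.35, 1.38 and 3.37 in iAMPK HFD+dox and 0.487, 0.462 and 0.107 in iAMPK HFD livers. L-iAMPK HFD+dox was below L-iAMPK HFD and iAMPK HFD+dox without overlap, and iAMPK HFD+dox spread furthest. The change of -1.37 ± 0.48 against L-iAMPK HFD did not pass (limma adjusted p = 0.0582). On recovered whole reads Timp1 changed by -2.75 (edgeR adjusted p = 0.03905).

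The second comparison with active AMPK sets L-iAMPK HFD+dox against iAMPK HFD+dox livers, so that both groups had doxycycline. Lrat, Tgfbr2, Tagln, Sparc, Mmp2 and Lamb1 fell, and none rose, against 4.61% of all genes. The 6 are 14.3% of the 42 genes, near the 10.3% of all genes that fell. The median change was -0.46 against -0.08 over all genes, 25 of the 42 had an unadjusted p under 0.05 (31.3% of all genes did), and 18 lay below iAMPK HFD+dox without overlap (23.4% of all genes). Lrat fell by 1.11 ± 0.22 (limma adjusted p = 0.00982), a call kept under all alternatives. Sparc fell by 0.86 ± 0.23 (limma adjusted p = 0.03297), Tagln by 0.83 ± 0.19 (limma adjusted p = 0.0156), Mmp2 by 0.76 ± 0.23 (limma adjusted p = 0.0484), Tgfbr2 by 0.62 ± 0.17 (limma adjusted p = 0.0293) and Lamb1 by 0.55 ± 0.16 (limma adjusted p = 0.0456). Fn1 lay above iAMPK HFD+dox without overlap, with a change of 0.30 ± 0.09 (limma adjusted p = 0.0513). Timp1 had a difference of -1.46 ± 0.48 (limma adjusted p = 0.0651) and, on recovered whole reads, of -3.32 (edgeR adjusted p = 0.0419).

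The count in this comparison rested on single libraries. It was 23 without iAMPK HFD+dox replicate 1, in which most of these genes were low, and 1 or 2 without iAMPK HFD+dox replicates 2 or 3 or any L-iAMPK HFD+dox replicate. Replicate 1 of iAMPK HFD+dox was also the shallowest library, and a link between its depth and these levels was not tested. The edgeR test on recovered whole reads, which lacks iAMPK HFD+dox replicate 2, made 2 calls among the 44 listed genes it tested. Of all 13773 genes in that edgeR test, 1121 passed in either direction. The Tagln call was lost on leaving out any 1 of L-iAMPK HFD+dox replicate 2 and iAMPK HFD+dox replicate 2 (adjusted p 0.0583 to 0.0585). The Tgfbr2 call was lost on leaving out any 1 of L-iAMPK HFD+dox replicates 1, 2 and 3 and iAMPK HFD+dox replicates 2 and 3 (adjusted p 0.0576 to 0.0993), and the Sparc call on leaving out any 1 of L-iAMPK HFD+dox replicates 1, 2 and 3 and iAMPK HFD+dox replicates 2 and 3 (adjusted p 0.0767 to 0.108). The Mmp2 call was lost on leaving out any 1 of 9 libraries (adjusted p 0.0521 to 0.148) and the Lamb1 call likewise (adjusted p 0.0572 to 0.153).

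**Figure D4:**
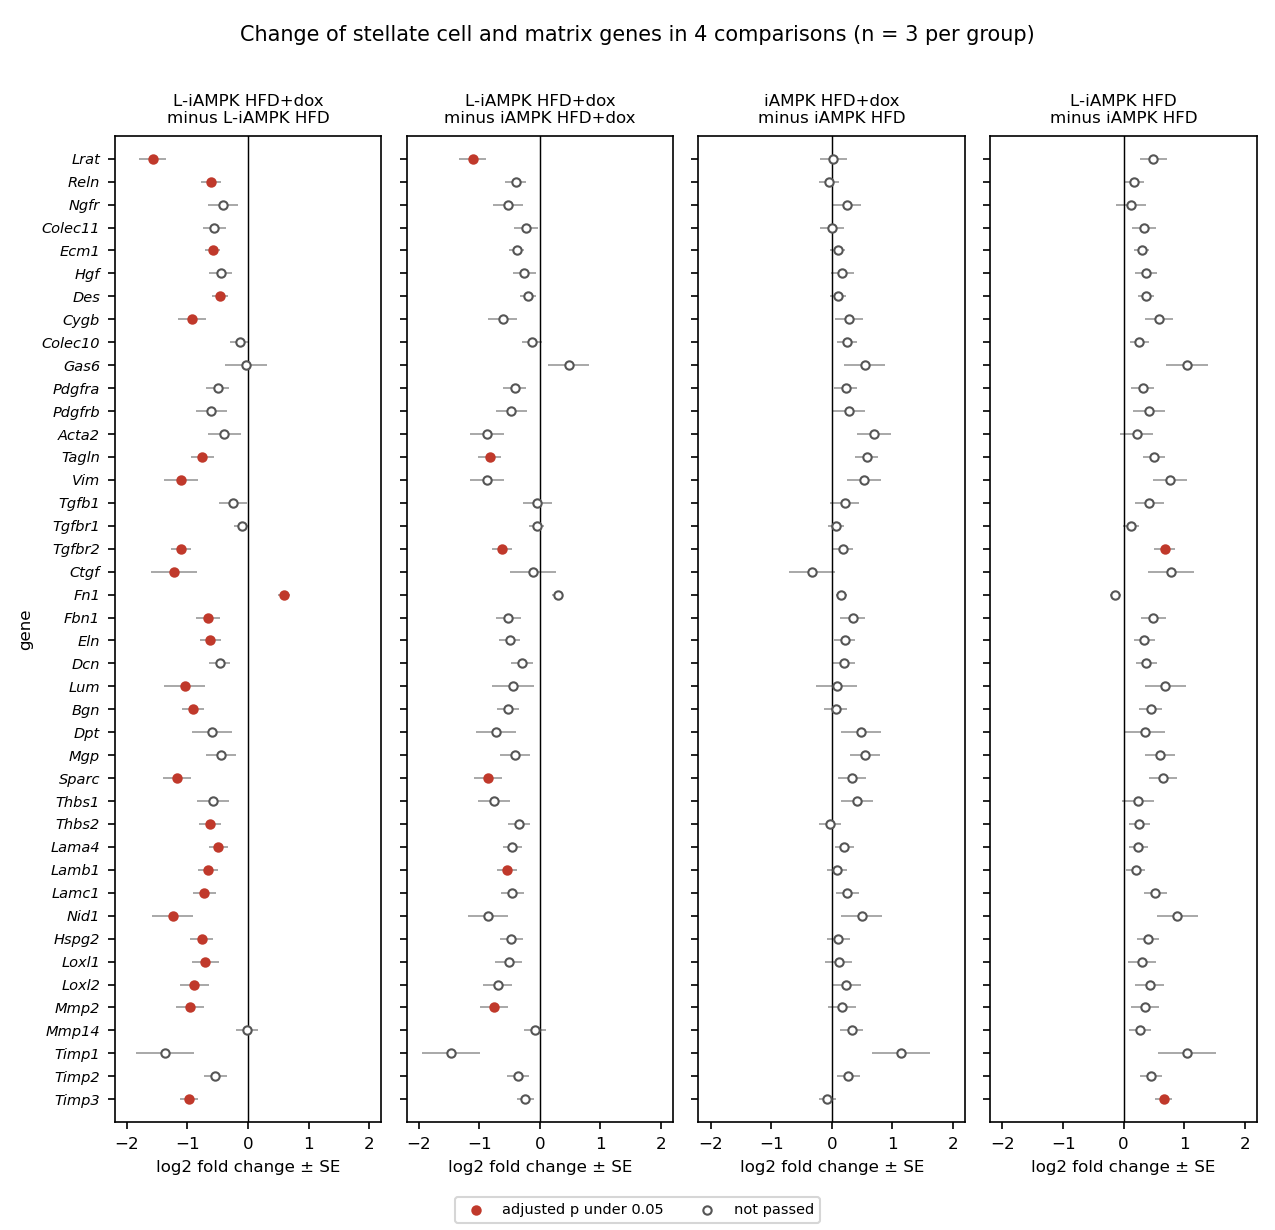
Points are log2 fold changes of the 42 genes and lines their SE, from limma on log2(FPKM + 0.5) with 3 libraries per group; filled red points have an adjusted p under 0.05. Most points lie left of 0 in both comparisons with L-iAMPK HFD+dox and right of 0 in both comparisons without active AMPK, where only Tgfbr2 and Timp3 in L-iAMPK HFD against iAMPK HFD passed.

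The interaction tests whether doxycycline changed a gene differently in L-iAMPK than in iAMPK livers. It was negative and passed for 17 of the 42 genes, 40.5% against 11.2% of all genes, and positive for Fn1 alone, against 2.01% of all genes. The median was -0.88 against -0.15 over all genes. By role, the 17 hold 2 of 6 quiescent markers (Lrat and Ecm1), 2 of 3 contractile or cytoskeletal genes (Tagln and Vim), 3 of 5 basement membrane genes (Nid1, Lamc1 and Hspg2) and 3 of 5 proteases or inhibitors (Mmp2, Timp1 and Timp3). The others are Cygb, Tgfbr2, Fbn1, Eln, Bgn, Sparc and Loxl2. The calls of Lrat (-1.60 ± 0.32, limma adjusted p = 0.0149), Tgfbr2 (-1.30 ± 0.23, limma adjusted p = 0.0114) and Tagln (-1.33 ± 0.27, limma adjusted p = 0.0149) were kept under all alternatives. Each of the other 15 calls ended without at least 1 library, and the count lay between 3 (without replicate 2 of L-iAMPK HFD or of iAMPK HFD+dox, or without replicate 1 of iAMPK HFD) and 27 (without iAMPK HFD+dox replicate 1). It was 9 after median-ratio scaling and 6 with edgeR on recovered whole reads. Of all 13773 genes tested by edgeR, 779 passed the interaction in either direction.

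Doxycycline without active AMPK was compared in iAMPK livers. No gene of the list passed, and limma and edgeR called 0 of all genes tested, so the background was 0%. At an unadjusted p under 0.05 limma had 4 of the 42 genes, against 6.23% of all genes. The median change was 0.21 against 0.02 over all genes. Acta2 and Fn1 lay above iAMPK HFD without overlap (5.78% of all genes did), and none lay below (4.46% of all genes did). Their changes were 0.70 ± 0.28 (limma adjusted p = 0.799) and 0.16 ± 0.09 (limma adjusted p = 0.814). Within iAMPK HFD+dox, replicate 1 lay low and replicates 2 and 3 lay high for most of the list.

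L-iAMPK HFD against iAMPK HFD livers compares the genotypes without doxycycline. Tgfbr2 rose by 0.67 ± 0.17 (limma adjusted p = 0.0479) and Timp3 by 0.66 ± 0.14 (limma adjusted p = 0.0323), and none fell, against 1.27% of all genes. The 2 are 4.76% of the genes tested, against 3.04% of all genes that rose. The median change was 0.39 against 0.08 over all genes, 41 of 42 changes were above 0, and 14 genes lay above iAMPK HFD without overlap (23.3% of all genes did), while none lay below it (6.8% of all genes did). The count was 9 without L-iAMPK HFD replicate 3, 7 without iAMPK HFD+dox replicate 1, and 0 without replicate 1 or 2 of either group. The Timp3 call was lost on leaving out any 1 of L-iAMPK HFD replicates 1 and 2 and iAMPK HFD replicates 1 and 2 (adjusted p 0.0739 to 0.126). The Tgfbr2 call was lost on leaving out any 1 of L-iAMPK HFD+dox replicates 1, 2 and 3, L-iAMPK HFD replicates 1 and 2, iAMPK HFD+dox replicate 2 and iAMPK HFD replicates 1, 2 and 3 (adjusted p 0.0503 to 0.1702). This comparison and that of doxycycline in L-iAMPK share the L-iAMPK HFD libraries.

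The authors' deposited table also compares L-iAMPK HFD+dox with iAMPK HFD, a comparison without the L-iAMPK HFD and iAMPK HFD+dox libraries. The direction was read from Prkaa1, so that positive is higher in L-iAMPK HFD+dox. In the authors' deposited table, 6 of the 45 genes were lower in L-iAMPK HFD+dox than in iAMPK HFD with an adjusted p under 0.05, against 3.41% of all genes, and 2 were higher, against 2.53%. The shares given here for the authors' comparisons are over all 24453 genes, expressed or not. Only 12614 of these passed the filter used for limma, while 42 of the 45 genes did, so the 2 sets are unlike. In the authors' deposited table the lower ones were Lrat (-1.14, adjusted p = 3.61e-08), Loxl2 (-1.02), Mmp2 (-0.99), Lamb1 (-0.53), Sparc (-0.48) and Reln (-0.42). In the authors' deposited table the higher ones were Gas6 (1.06, adjusted p = 8.81e-06) and Fn1 (0.53). Against L-iAMPK HFD, the authors' deposited table gives 25 lower (6.64% of all genes) and 1 higher (4.27%), and against iAMPK HFD+dox 15 lower (3.79%) and 0 higher (2.57%). These comparisons share the L-iAMPK HFD+dox libraries. Timp1 passed in the authors' deposited table against L-iAMPK HFD, at -2.73 (adjusted p = 4.24e-05).

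Other genes of the same pathways, from lists chosen with earlier results known, moved in part with these. The counts and changes that follow are for L-iAMPK HFD+dox against L-iAMPK HFD, where 21.1% of all genes fell and 4.76% rose, and their alternatives were not run. Of the 13 collagen genes, 11 fell and 1 rose. The fibrillar collagen gene Col1a2 averaged 1.67 ± 0.0862 FPKM in L-iAMPK HFD+dox livers, against 7.34 ± 2.48 in L-iAMPK HFD livers (SD, n = 3 each), and the basement membrane collagen gene Col4a2 averaged 2.46 ± 0.209 FPKM in L-iAMPK HFD+dox livers, against 7.899 ± 1.28 in L-iAMPK HFD livers. Col1a2 fell by 1.80 ± 0.41 (limma adjusted p = 0.0119) and Col4a2 by 1.49 ± 0.23 (limma adjusted p = 0.00187). Of 12 collagen processing genes tested, 6 fell and 1 rose. The collagen chaperone gene Serpinh1 fell by 1.40 ± 0.25 (limma adjusted p = 0.00394), and Bmp1, whose protease trims procollagen, rose by 0.46 ± 0.08 (limma adjusted p = 0.00273). Of 20 other matrix proteins tested, 13 fell, among them Fbln2, a fibulin, by 0.84 ± 0.14 (limma adjusted p = 0.00273).

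Of 20 other TGF-beta pathway genes tested, 10 fell. Lrrc32, which holds latent TGF-beta at the cell surface, averaged 1.704 ± 0.229 FPKM in L-iAMPK HFD+dox livers, against 5.13 ± 0.802 in L-iAMPK HFD livers (SD, n = 3 each) and fell by 1.35 ± 0.16 (limma adjusted p = 4.93e-04). Of the 4 PDGF ligand genes, Pdgfa and Pdgfb fell, by 0.52 ± 0.15 (limma adjusted p = 0.0251) and 0.70 ± 0.19 (limma adjusted p = 0.0234). Of 11 other matrix proteases and inhibitors tested, 5 fell, and Mmp12, the macrophage elastase, averaged 0.17 ± 0.0616 FPKM in L-iAMPK HFD+dox livers, against 3.41 ± 1.08 in L-iAMPK HFD livers, and fell by 2.51 ± 0.54 (limma adjusted p = 0.00996). Of 18 further stellate cell markers, 7 fell and 1 rose. The pericyte marker Rgs5 fell by 0.53 ± 0.12 (limma adjusted p = 0.00853) and the chemokine gene Cxcl12 rose by 0.52 ± 0.11 (limma adjusted p = 0.00698).

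Against iAMPK HFD+dox, where 10.3% of all genes fell and 4.61% rose, fewer genes of each of these lists passed. In L-iAMPK HFD+dox livers 5 of 13 collagens, 2 of 12 collagen processing genes and 4 of 20 other matrix proteins fell, and 1 collagen and 1 collagen processing gene rose. Of the other lists, 3 of 20 TGF-beta pathway genes, 1 of 4 PDGF ligands, 2 of 11 other proteases and inhibitors and 3 of 18 further stellate cell markers fell, and 1 of the stellate cell markers rose. The interaction was negative and passed for 7 of 13 collagens, 4 of 12 collagen processing genes and 7 of 20 other matrix proteins (11.2% of all genes). It was negative and passed for 6 of 20 TGF-beta pathway genes, 1 of 4 PDGF ligands, 3 of 11 other proteases and inhibitors and 4 of 18 stellate cell markers, and positive for 1 collagen processing gene and 1 stellate cell marker.

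Some markers of other liver cells passed the test as well. Of 12 sinusoidal endothelial markers, 8 fell against L-iAMPK HFD (21.1% of all genes did) and 1 against iAMPK HFD+dox (10.3% of all genes did), and their summed FPKM was 124 to 150 in L-iAMPK HFD+dox, against 158 to 174 in L-iAMPK HFD, 153 to 169 in iAMPK HFD+dox and 124 to 161 in iAMPK HFD livers. Of 6 portal fibroblast and mesothelial markers tested, 2 fell against L-iAMPK HFD while 1 fell against iAMPK HFD+dox, and the summed FPKM of the list was 3.40 to 4.09 in L-iAMPK HFD+dox, against 7.02 to 12.8 in L-iAMPK HFD, 5.19 to 7.53 in iAMPK HFD+dox and 4.36 to 6.77 in iAMPK HFD livers. Of 3 smooth muscle markers tested, 2 fell against L-iAMPK HFD while 1 fell against iAMPK HFD+dox, with sums of 15.1 to 16.7 FPKM in L-iAMPK HFD+dox, against 21.97 to 23.4 in L-iAMPK HFD, 18.6 to 24.3 in iAMPK HFD+dox and 19.8 to 23.3 in iAMPK HFD livers. The smooth muscle markers Cnn1 and Lmod1 were under 0.5 FPKM in all 12 libraries. Of 5 cholangiocyte markers tested, 1 fell against L-iAMPK HFD, near the share of all genes, and 0 against iAMPK HFD+dox, with sums of 6.26 to 6.47 FPKM in L-iAMPK HFD+dox, against 7.09 to 13.3 in L-iAMPK HFD, 7.67 to 8.79 in iAMPK HFD+dox and 6.60 to 9.12 in iAMPK HFD livers.

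Of the 11 macrophage markers tested, 0 passed against L-iAMPK HFD (25.8% of all genes did) or against iAMPK HFD+dox (14.9% did). The interaction was negative and passed for 2 (11.2% of all genes), Ccr2 (-2.18 ± 0.52, limma adjusted p = 0.0269) and Cd68 (-1.53 ± 0.39, limma adjusted p = 0.0326). The macrophage sums of 143 to 276 FPKM in L-iAMPK HFD+dox overlapped those of the other groups (235 to 284 FPKM in L-iAMPK HFD, 177 to 359 in iAMPK HFD+dox and 135 to 198 in iAMPK HFD). Of 2 lymphocyte markers tested, 0 passed against L-iAMPK HFD, Nkg7 fell against iAMPK HFD+dox by 0.82 ± 0.25 (limma adjusted p = 0.0479), and the interaction passed for Ptprc (-1.41 ± 0.41, limma adjusted p = 0.0456). The lymphocyte list had sums of 2.41 to 4.59 FPKM in L-iAMPK HFD+dox, against 4.28 to 5.34 in L-iAMPK HFD, 3.25 to 6.99 in iAMPK HFD+dox and 2.31 to 3.79 in iAMPK HFD livers. Of 12 hepatocyte markers, 4 rose and 0 fell against L-iAMPK HFD, where 4.76% of all genes rose and 21.1% fell. Against iAMPK HFD+dox 4 rose and 1 fell, where 4.61% of all genes rose and 10.3% fell. The interaction was positive and passed for 2 of the 12, against 2.01% of all genes. The sums of the hepatocyte list were 56770 to 67040 FPKM in L-iAMPK HFD+dox, against 60070 to 65930 in L-iAMPK HFD, 55840 to 61140 in iAMPK HFD+dox and 54190 to 62110 in iAMPK HFD livers. The interaction was negative and passed for 5 of the endothelial, 2 of the portal fibroblast and mesothelial, 0 of the smooth muscle and 0 of the cholangiocyte markers (11.2% of all genes). The part of these cell types in the changes of the stellate cell and matrix genes was not tested.

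Some of the 45 genes share exon sequence with a gene on the opposite strand, and no source used here says if the authors counted by strand. In the GENCODE M21 annotation the longest such overlaps are 2442 bases of Fbn1 with Gm9913, 1733 bases of Timp3 with Syn3, 1241 bases of Tagln with Gm48529 and 665 bases of Ctgf with Gm15270. For these 4 genes, reads of both partners may be counted together.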

How the data were processed

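RNA of flash-frozen livers was made into stranded TruSeq mRNA libraries, per the labels' protocols. FastQC, STAR 2.4.0k, HOMER, edgeR 3.6.8 and mm10 are named, without roles, in the submitters' processing notes. The authors deposited FPKM per gene, to which they had added 0.5 (the lowest value in every column); this was subtracted. A second deposited table holds scaled tags, a signal per gene scaled by them to a common total per library, and the authors' log2 fold changes and adjusted p-values, which were used only where named. Scaled tags divided by the worth of 1 read gave whole reads (100% of values within 0.02), except that in iAMPK HFD+dox replicate 2 a read is worth 0.995 tags and whole reads were not claimed. Transcript and coordinate columns of the tag table differ from the FPKM table for 4210 of 24453 genes, so genes were joined by symbol and coordinates taken from the FPKM table.

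Tests used log2(FPKM + 0.5), limma 3.58.1 (R 4.3.3), a mean for each of 4 groups, 12 libraries, an intensity trend and robust empirical Bayes, Benjamini-Hochberg adjustment over 12614 genes. A simulation changed 67, 67 and 66 of 12614 genes by 0.5, 1 and 2 log2 units. The fit recovered 41.8%, 76.1% and 98.5% of these in the main comparison, and also called 6 unchanged genes. Between genotypes on doxycycline, recovery was 37.3%, 74.6% and 95.5%, and 6 unchanged genes were called. In the interaction, recovery was 11.9%, 58.2% and 92.4%, and 1 unchanged gene was called. In the data 3259 genes passed in the main comparison, and the Benjamini-Hochberg cut-off moves with how many genes change. The simulated rates therefore do not give the share of changes found in these data. The edgeR 4.0.16 quasi-likelihood test on recovered reads of 11 libraries was an alternative, beside median-ratio and quantile scaling, pseudocounts of 0.1 and 1, no filter or 2 FPKM, a replicate block, array weights, no trend or robust step, only the groups compared, and leaving out each library. Precision is set by 3 libraries per group.

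The members, lists, tests and alternatives were chosen with earlier results of these data known. All 45 genes are named; libraries are given for quiescent and activated markers and for genes called with active AMPK, others by range, and of each further list at most the 4 genes with the smallest p in L-iAMPK are named. The further list symbols Emr1 and Lepre1 are not in the tables. Gas6 is given by library, and promoters and motifs were chosen, after values were seen. No alternative was added later. 1 gene that this rule would name is not reported here.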

Additional observations from a re-analysis of the deposited data

Results flagged for a closer look

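The effect of doxycycline differed between L-iAMPK and iAMPK livers for 18 of the 42 genes tested, against 13.2% of all genes. The measure was the interaction term of the limma fit on log2(FPKM + 0.5), with an adjusted p under 0.05. Leaving out a single library ended 15 of the 18 calls, and the Timp1 call ended for 10 of the 12 libraries left out. The interaction (the change in L-iAMPK minus the change in iAMPK, log2) was -2.51 for Timp1, -1.74 for Nid1, -1.64 for Vim, -1.60 for Lrat, -1.504 for Sparc, -1.33 for Tagln, -1.30 for Tgfbr2 and -1.20 for Cygb. It was -1.12 for Loxl2, -1.11 for Mmp2, -1.01 for Fbn1, -0.98 for Lamc1, -0.97 for Bgn, -0.90 for Timp3, -0.87 for Hspg2, -0.83 for Eln, -0.68 for Ecm1 and 0.44 for Fn1. The Timp1 value, which is the furthest from 0, rests on 0.202, 0.184 and 0.114 FPKM in L-iAMPK HFD+dox against 1.98, 1.35 and 0.60 in L-iAMPK HFD, and on 0.35, 1.38 and 3.37 in iAMPK HFD+dox against 0.487, 0.462 and 0.107 in iAMPK HFD livers. With edgeR on recovered whole reads the Timp1 interaction was -5.09 (edgeR adjusted p = 0.0342). Groups of 3 are too small for a search for single outlying libraries.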

How the results depend on the processing

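No call among the 45 genes changed direction under the alternatives run; genes of the further lists had none run. With limma array weights, whose iterations stopped short of the set tolerance, more genes passed: 28 fell and 1 rose for genotypes on doxycycline (3 quiescent and 8 activated), 37 fell in the interaction (5 quiescent and 11 activated), 18 rose for genotypes without doxycycline, and 5 quiescent markers fell with doxycycline in L-iAMPK. With edgeR on recovered whole reads, 2 fell for genotypes on doxycycline (1 activated), 6 in the interaction (1 quiescent) and 0 rose for genotypes without doxycycline. In the same order, edgeR called 1121, 779 and 391 of all 13773 genes it tested, in either direction. After median-ratio scaling 9 fell in the interaction (1 quiescent), 1 rose for genotypes on doxycycline and 0 for genotypes without doxycycline; after quantile normalization 8 fell in the interaction (1 quiescent) and 1 rose for genotypes on doxycycline. Without a filter 8 fell and 0 rose in the interaction and 1 rose for genotypes without doxycycline. With the filter at 2 FPKM, which tests fewer genes, 4 activated genes fell with doxycycline in L-iAMPK and 3 in the interaction, and 1 gene rose for genotypes on doxycycline. Without the trend and robust step 0 rose in the interaction and 1 for genotypes without doxycycline, as 1 did with only the groups compared, a setting that has no interaction. The cause of these shifts was not tested. Apart from the edgeR counts over all genes, among them 0 for doxycycline in iAMPK, no share of all genes called is given for any alternative, libraries left out included. Except with edgeR, the counts under alternatives therefore cannot be set against all genes.

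Leaving out single libraries gave 7 to 30 genes that fell and 1 that rose for doxycycline in L-iAMPK (2 to 5 quiescent, 2 to 8 activated). It gave 1 to 23 that fell and 0 to 1 that rose for genotypes on doxycycline (1 to 3 quiescent, 0 to 7 activated), and 3 to 27 that fell and 0 to 1 that rose in the interaction (1 to 4 quiescent, 1 to 8 activated). For genotypes without doxycycline 0 to 9 rose, and for doxycycline in iAMPK 0 were called in each.

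The replicate numbers were not shown to pair the libraries: correlations of same-numbered deviations from the group means lay between -0.275 and 0.446, and a library was closest to its own number in 14 of 36 library and group pairs. With the replicate block 24 genes fell and 1 rose for doxycycline in L-iAMPK, 4 fell for genotypes on doxycycline, 13 fell and 0 rose in the interaction, and 0 rose for genotypes without doxycycline. Lox, Tgfb2 and Tgfb3 were under the FPKM filter and have no limma test.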
